A study of Homo sapiens with 9 samples.

Results

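LINC01721, MANCR, SSTR5-AS1, HTR1E, MSMP, MUC5B, TSPEAR, CITED1 and SMCO2 are 9 of the 60617 genes counted in PC-3 cells, and they were chosen by their measured fold changes against control as genes among the largest decreases after treatment. All 9 were among the 18532 genes that passed the filter on low counts and were tested. PC-3, a line long established from a human prostate cancer, models castration-resistant disease. RNA was sequenced 5 days after the start of treatment in 3 control libraries (Ctrl), 3 libraries after decitabine at 1 µM (Dec) and 3 libraries after decitabine at 1 µM together with S-adenosylmethionine (SAM) at 200 µM (Dec_Sam), called the combination here. The control cells received the vehicle, no genotype is given for any group, and each group stands for a single cell line. The 9 libraries held between 21934307 and 22489684 estimated counts, so that their depth differed little. Nothing in the labels says that the replicates were separate cultures, so that the p-values measure the spread between these libraries, which may be technical.

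The label did not hold for every gene. For 7 of the 9 genes, the level was lower by more than 2 on the log2 scale with both treatments. For these 7, no treated library reached the level of any control library. Separation from control in either direction was common among all genes. Of 18532 genes tested, 10739 with decitabine and 10403 with the combination had it and also had enough counts for the ranking given later. Separated genes with fewer counts are left out, so that these numbers understate how common separation was. CITED1 was lower with decitabine but not with the combination, and SMCO2 overlapped with control under both treatments.

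Decitabine is a cytosine analogue that is built into DNA and traps DNA methyltransferases there, so that methylation is lost as cells divide. SAM is the methyl donor of these enzymes. Treatments of this kind are best known for switching silent genes on, which is why genes that are lost are of interest. The question put to the data was how far each of the 9 genes was lost, whether adding SAM to decitabine altered the loss, and whether relatives and neighbours of these genes were lost too.

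The 9 genes have little in common by function. MSMP (PC3-secreted microprotein) is a small secreted protein first found in the medium of this very line, and it can act on the chemokine receptor CCR2. MUC5B is a gel-forming mucin, a very large secreted glycoprotein of airway and gland mucus. TSPEAR is a secreted protein with EAR repeats that is known from tooth, hair and inner ear. HTR1E is a serotonin receptor coupled to inhibitory G proteins. CITED1 is a transcriptional coactivator that binds CBP and p300, and SMCO2 is a membrane protein with a coiled coil about which little is known. The other 3 are long noncoding RNAs. MANCR was named for its association with mitosis in cancer cells, SSTR5-AS1 lies antisense to the somatostatin receptor gene SSTR5, and LINC01721 has no known role. Long noncoding RNAs made up 33.3% of the 9 genes and 16.2% of all genes tested.

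The genes lie on 9 different chromosomes. In the assembly GRCh38 with the GENCODE release 44 annotation, LINC01721 spans chr20:24063255-24226013, MANCR chr10:4581295-4678216, SSTR5-AS1 chr16:1064087-1078731, HTR1E chr6:86937528-87016679, MSMP chr9:35752990-35756613, MUC5B chr11:1223066-1262172, TSPEAR chr21:44497893-44711572, CITED1 chrX:72301638-72307187 and SMCO2 chr12:27446736-27502185. DNA methylation sits mostly on the cytosine of CpG dinucleotides.
The 250 bases before the listed transcription start are shown for the 5 genes that were lost with both treatments and have an entry in the RefSeq promoter table (build GRCh38.p14), so that their CpG content can be seen. For LINC01721, MSMP and MANCR this start (chr20:24199767, chr9:35754276 and chr10:4678070) lies inside the annotated gene body. Which start the cells used was not tested. They are written from 5′ to 3′ on the strand of the gene, with each CpG in capitals.
MSMP, chr9:35754277-35754526, minus strand: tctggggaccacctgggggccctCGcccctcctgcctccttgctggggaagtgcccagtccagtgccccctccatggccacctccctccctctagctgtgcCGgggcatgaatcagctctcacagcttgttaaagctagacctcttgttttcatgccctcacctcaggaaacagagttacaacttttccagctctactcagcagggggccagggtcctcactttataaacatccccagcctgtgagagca
MANCR, chr10:4678071-4678320, minus strand: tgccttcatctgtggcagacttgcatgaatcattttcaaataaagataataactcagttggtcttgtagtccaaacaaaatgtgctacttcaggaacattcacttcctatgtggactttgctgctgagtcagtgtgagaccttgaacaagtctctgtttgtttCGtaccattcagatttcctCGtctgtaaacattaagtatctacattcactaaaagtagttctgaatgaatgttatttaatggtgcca
LINC01721, chr20:24199517-24199766, plus strand: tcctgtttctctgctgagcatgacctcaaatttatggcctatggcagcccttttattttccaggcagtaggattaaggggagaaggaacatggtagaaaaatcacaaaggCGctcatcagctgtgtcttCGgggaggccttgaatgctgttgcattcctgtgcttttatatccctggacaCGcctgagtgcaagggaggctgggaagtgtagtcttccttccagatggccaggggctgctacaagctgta
HTR1E, chr6:86937278-86937527, plus strand: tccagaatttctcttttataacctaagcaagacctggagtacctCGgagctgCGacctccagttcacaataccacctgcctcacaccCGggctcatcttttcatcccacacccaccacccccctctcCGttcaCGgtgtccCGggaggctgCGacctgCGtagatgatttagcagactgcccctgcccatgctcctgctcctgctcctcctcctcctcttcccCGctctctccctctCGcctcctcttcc
SSTR5-AS1, chr16:1078732-1078981, minus strand: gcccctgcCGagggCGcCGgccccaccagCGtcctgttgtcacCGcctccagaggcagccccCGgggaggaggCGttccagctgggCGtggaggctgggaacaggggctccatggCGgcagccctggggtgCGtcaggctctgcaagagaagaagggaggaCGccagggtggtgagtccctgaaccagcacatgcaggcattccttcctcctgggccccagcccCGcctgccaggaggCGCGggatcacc

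These sequences fall into a CpG-poor and a CpG-richer kind. The printed bases of MSMP and MANCR hold 2 CpG each and those of LINC01721 hold 3, whereas those of HTR1E hold 10 and those of SSTR5-AS1 hold 14. In the table, 7 of the 9 symbols matched, with 10 promoters. Over the full window of 300 bases, from 250 before the start to 50 after it, the counts were 2 for MSMP, 2 for MANCR, 5 for LINC01721, 16 for HTR1E and 18 for SSTR5-AS1. The 3 CITED1 promoters held 28, 21 and 24 CpG, and the 2 promoters of SMCO2 held 2 and 0. The median was 5 CpG over the 5 promoters of genes lost with both treatments and 10.5 over all 10 promoters, against 14 over all 35116 promoters of the table, 24 over the promoters of the genes tested and 26 over those of genes that were lower with decitabine. Of all promoters, 18.2% held no more CpG than those of MSMP and MANCR. No methylation was measured in the files used here.

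**Figure D1:**
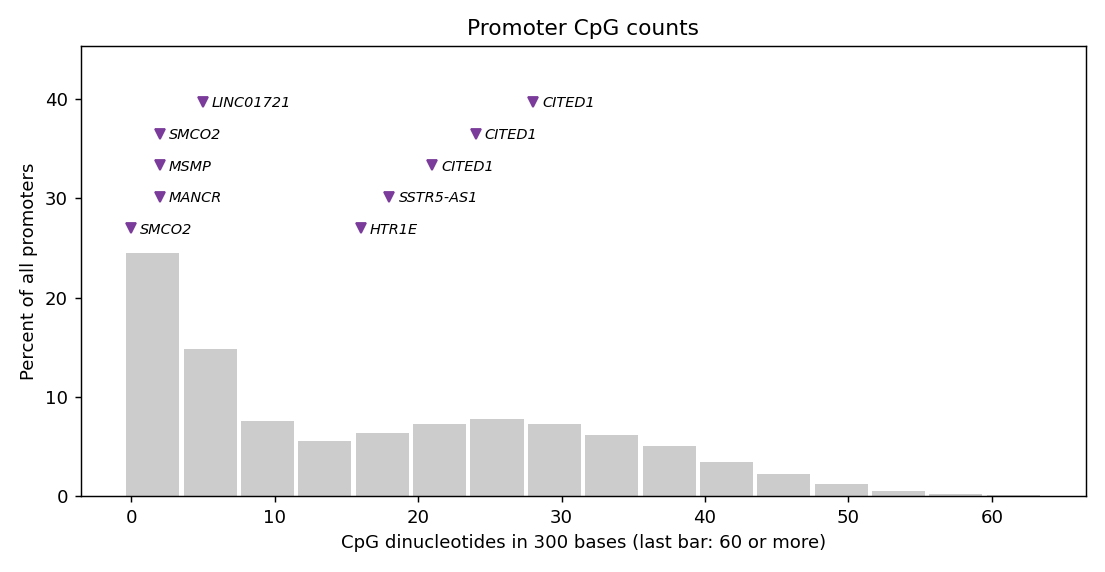
Number of CpG dinucleotides in the 300 bases around the transcription start (x axis) for all 35116 promoters of the RefSeq table, as percent of promoters in each bar (y axis). Triangles mark the 10 promoters of 7 of the genes and their height has no meaning; those of MSMP, MANCR and SMCO2 sit in the first bar and those of CITED1 near the second rise.

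The letters TATAAA, the core of a TATA box, were searched on both strands, and so were those of 4 other common promoter motifs. These were CCAAT for the CCAAT box, then GGGCGG for the GC box that Sp factors bind, then TGAGTCA for a site of the factor AP-1, and lastly CACGTG for an E-box. TATAAA or its reverse complement was found in 8 of the 10 promoters of these genes and in 11.5% of all promoters. Of these 8, 5 belong to CITED1 and SMCO2, and among the 5 promoters of genes lost with both treatments 3 had it. In MSMP it began 27 bases before the start, where the reverse complement overlaps it, and in the first and the third promoter of CITED1 it began 29 bases before the start. These 3 of 10 promoters had it on the sense strand between 35 and 24 bases before the start, where a TATA box usually lies, as 2.18% of all promoters did, and among the genes lost with both treatments only MSMP did so. The other matches lay farther upstream. TGAGTCA was found in 1 of the 10 promoters, that of MANCR, CCAAT in 2, GGGCGG in 1 and CACGTG in 0, against 4.95%, 34.6%, 45.0% and 7.26% of all promoters. A match of letters is not a binding site, and its absence says nothing about a factor.

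In untreated cells these genes covered a wide range of levels. Per kb of exon, MSMP stood highest with 936 ± 360 CPM per kb (CPM being estimated counts scaled to library size with TMM, SD, n = 3), followed by MUC5B with 71.7 ± 12.1, SSTR5-AS1 with 32.1 ± 1.91, MANCR with 7.66 ± 0.794, TSPEAR with 4.03 ± 0.397 and HTR1E with 1.5 ± 0.1 CPM per kb. These 6 genes did not overlap with their neighbours in that order. CITED1 with 0.348, LINC01721 with 0.325 and SMCO2 with 0.288 CPM per kb overlapped among each other. By CPM without length, MUC5B stood above 99.7% and MSMP above 99.2% of the genes tested in the control libraries, and CITED1 above 19.3% and SMCO2 above 19.0%. The 7 lost genes thus included some of the most abundant transcripts of the cells. CITED1 and SMCO2, which were not lost with both treatments, averaged 12.5 and 12 counts in the control libraries.

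**Figure D2:**
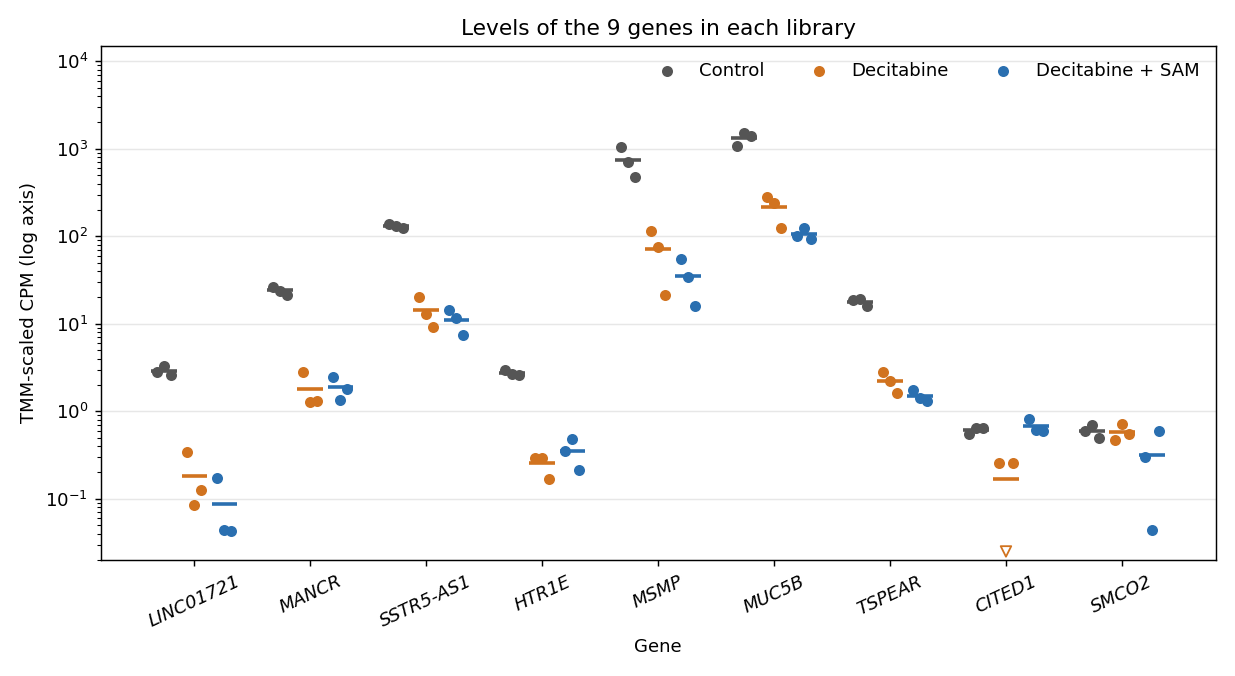
TMM-scaled CPM (log axis) of each gene (x axis) in the 3 control, 3 decitabine and 3 combination libraries; points are libraries, lines are group means and the open triangle is a library of CITED1 at 0. For 7 genes the treated points lie below all control points, while CITED1 with the combination and SMCO2 with decitabine lie among the controls.

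MSMP, the secreted microprotein, was present at 1046, 704 and 479 CPM in the control libraries, 115, 76.2 and 21.4 CPM in the decitabine libraries and 54.7, 34.7 and 15.8 CPM in the combination libraries. The groups did not overlap with control, although the controls themselves varied more than for any of the other 8 genes, with a coefficient of variation of 38.4%. The mean fell to 9.53% of control with decitabine and to 4.72% with the combination, which corresponds to log2 fold changes of -3.39 (SE 0.75) and -4.41 (SE 0.79). As for all of the 9 genes, these contrasts against control had been used to choose the gene, so that they are given as a description with no test. CCR2, the chemokines CCL2, CCL7, CCL8 and CCL13, and the relative MSMB did not pass the filter on low counts. In the annotation, all 794 exon bases of MSMP also lie in exons of RGP1 on the opposite strand, and whether the counting used strand is not given in the sources used here, so that reads of both genes may not be told apart. RGP1 was at 159, 129 and 122 CPM in control, 118, 120 and 106 CPM in decitabine and 95.8, 104 and 107 CPM in combination libraries, a much smaller difference than that of MSMP (log2 fold changes -0.25 and -0.42, adjusted p = 0.027 and 0.0012 by edgeR's quasi-likelihood test). With library size as the only scaling these were -0.01 and -0.19 (adjusted p = 0.95 and 0.082), and without control replicate 1 the first was -0.14 (adjusted p = 0.15).

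MUC5B was the most abundant of the genes by CPM. Its level was 1087, 1528 and 1388 CPM in control, 283, 242 and 124 CPM in decitabine and 102, 124 and 93.7 CPM in combination libraries, so that 16.2% of the control mean remained with decitabine and 7.97% with the combination. The log2 fold changes against control were -2.62 (SE 0.32) and -3.65 (SE 0.34). The decitabine and combination libraries did not overlap either, but the gap was only 0.27 CPM, between 124.3 CPM in decitabine replicate 3 and 124.0 CPM in combination replicate 2. How common such a separation between the treatments was among all genes tested is not given here. MUC5B-AS1, which shares 434 exon bases on the opposite strand, had 18 counts over the control libraries, 4 over the decitabine libraries and 1 over the combination libraries, and was too low to be tested.

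The tested relatives of MUC5B moved the other way. Of 15 other mucin genes, 10 were tested, and 10 of these rose with decitabine and 10 with the combination, where 36.3% and 35.9% of all genes tested were called higher. Their median log2 fold changes were 2.78 and 2.78 (2.78 and 2.70 with MUC16, which had no control counts, at its lower bound), against 0.03 and 0.05 over all genes. The count and the medians partly reflect the filter. MUC4, MUC12 and MUC16 had 4, 7 and 0 counts over the control libraries, passed through the treated libraries and had almost no room to fall. MUC1, MUC2, MUC3A, MUC5AC and MUC13 had 64 or more counts over the control libraries and rose as well. MUC5AC, the other gel-forming mucin of airways and stomach, lies 21928 bases from MUC5B in the same cluster. It rose from 20.8, 28.8 and 27.6 CPM in control to 195, 165 and 103 CPM with decitabine and 175, 184 and 108 CPM with the combination (log2 fold changes 2.58 and 2.60, adjusted p = 0.00028 and 0.00029 by edgeR). MUC2, the gel-forming mucin of the intestine, rose from 3.62, 3.90 and 4.04 CPM to 286, 214 and 122 CPM with decitabine and 125, 116 and 102 CPM with the combination (5.75 and 4.89, adjusted p = 7.9e-06 and 1.9e-05 by edgeR). MUC1, a membrane-bound mucin, rose from 1.62 ± 0.213 CPM to 40.1 and 14.9 CPM. In control cells MUC5B was thus far above the other mucins, and after treatment it stood beside MUC2 and MUC5AC in CPM. Counts of MUC5B were not whole numbers in some libraries (6704.58 in decitabine replicate 1), as can occur where kallisto shares out reads that match more than 1 gene.

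Other genes of mucus-producing cells went in both directions. Of 16 such genes, 11 were tested, of which 3 fell (27.3%, against 32.5% and 31.3% of all genes tested) and 6 rose (54.5%, against 36.3% and 35.9%) with each treatment. The share that fell was thus no higher than over all genes. SPDEF, a transcription factor of goblet cells, fell from 79.1, 83.4 and 68.3 CPM to 43.9, 33.7 and 26.6 CPM with decitabine and to 45.6, 39.8 and 28.3 CPM with the combination (log2 fold changes -1.15 and -1.02, adjusted p = 0.0014 and 0.0028 by edgeR). FOXA1 and AGR2, a disulfide isomerase needed to fold mucins, were the other genes that fell. The decrease of AGR2 with decitabine was -1.28 (adjusted p = 0.025) and its call was lost without control replicate 1 (-1.04), control replicate 2 (-1.17), decitabine replicate 2 (-1.26) or decitabine replicate 3 (-1.11). That of FOXA1 was -0.60 and -0.45, and with library size as the only scaling it was -0.36 and -0.24 and passed the threshold with neither treatment. Its call with the combination was also lost without control replicate 1 (-0.41), control replicate 2 (-0.47) or combination replicate 3 (-0.32). The trefoil factors TFF1, TFF2 and TFF3, which are secreted with mucins, rose by 1.45, 1.47 and 0.93 on the log2 scale with decitabine and by 1.81, 1.24 and 1.20 with the combination.

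TSPEAR was at 18.8, 19.2 and 15.9 CPM in control, 2.79, 2.19 and 1.61 CPM in decitabine and 1.74, 1.41 and 1.32 CPM in combination libraries. The mean was 12.2% and 8.28% of control, with log2 fold changes of -3.03 (SE 0.18) and -3.59 (SE 0.19), which are the smallest standard errors among the 9 genes. The antisense genes TSPEAR-AS1 and TSPEAR-AS2 on the opposite strand went up, while another noncoding RNA there, ENSG00000287088, with 91 shared exon bases, was too low to be tested (2, 2 and 5 counts over the control, decitabine and combination libraries). TSPEAR-AS2 rose from 0.249 ± 0.132 CPM to 1.1 ± 0.128 CPM with decitabine and 1.15 ± 0.310 CPM with the combination (SD, n = 3, log2 fold changes 2.12 and 2.19, adjusted p = 0.00028 and 0.00022 by edgeR). TSPEAR-AS1 had 2, 0 and 0 counts in control, 18, 18 and 12 in decitabine and 11, 11 and 6 in combination libraries (4.14 and 3.41, adjusted p = 0.00012 and 0.0013 by edgeR). TSPEAR-AS1 shares 320 and TSPEAR-AS2 shares 16 of the 4462 exon bases of TSPEAR. Of the other proteins with EAR repeats, 3 of 5 were tested. ADGRV1 fell with both treatments (log2 fold changes -1.0 and -0.53) and LGI2 fell with decitabine (-0.73, adjusted p = 0.0038 by edgeR). The share lower was thus 66.7% and 33.3%, against 32.5% and 31.3% of all genes tested. LGI4 was called higher with both (adjusted p = 0.021 and 0.027 by edgeR), against 36.3% and 35.9% of all genes tested. It had only 4, 26 and 24 counts over the control, decitabine and combination libraries, and its decitabine libraries overlapped with control.

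HTR1E, the serotonin receptor, was at 2.93, 2.70 and 2.57 CPM in control, 0.296, 0.295 and 0.169 CPM in decitabine and 0.348, 0.483 and 0.213 CPM in combination libraries. With 165 counts over the control libraries, 18 over the decitabine libraries and 24 over the combination libraries, 9.27% and 12.7% of the control mean remained (log2 fold changes -3.40, SE 0.32, and -2.96, SE 0.31). None of its tested relatives was called lower. Of 16 other serotonin receptor genes, 6 were tested, and 5 rose with each treatment (83.3%, against 36.3% and 35.9% of all genes tested). These 5, HTR1B, HTR1D, HTR2B, HTR2C and HTR6, were at 0.264 CPM or less in control and passed the filter through the treated libraries. They had almost no room to fall, so that 0 called lower (against 32.5% and 31.3%) says little about the family. HTR1D, a receptor of the same inhibitory class, rose from 0.198, 0.1 and 0.493 CPM to 4.56, 6.44 and 7.99 CPM with decitabine and 6.52, 6.72 and 8.17 CPM with the combination (4.55 and 4.73, adjusted p = 8.8e-08 and 5.9e-08 by edgeR). HTR1B and HTR2C had no counts in any control library and were at least 9.07-fold and 16.1-fold higher with decitabine and at least 9.04-fold and 11.6-fold higher with the combination, taking 3 counts over the 3 control libraries as the floor, which covers counting error only. HTR6 and HTR2B also rose. The call of HTR2B with decitabine (2.03, adjusted p = 0.023) was lost without control replicate 2 (1.72), control replicate 3 (2.02) or decitabine replicate 1 (1.18). HTR7, at 5.56 CPM in control and 4.43 and 4.53 CPM with the treatments, did not pass the test (log2 fold changes -0.33 and -0.29, adjusted p = 0.069 and 0.099 by edgeR). HTR7 and HTR1E had the highest CPM of the family in control cells.

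**Figure D3:**
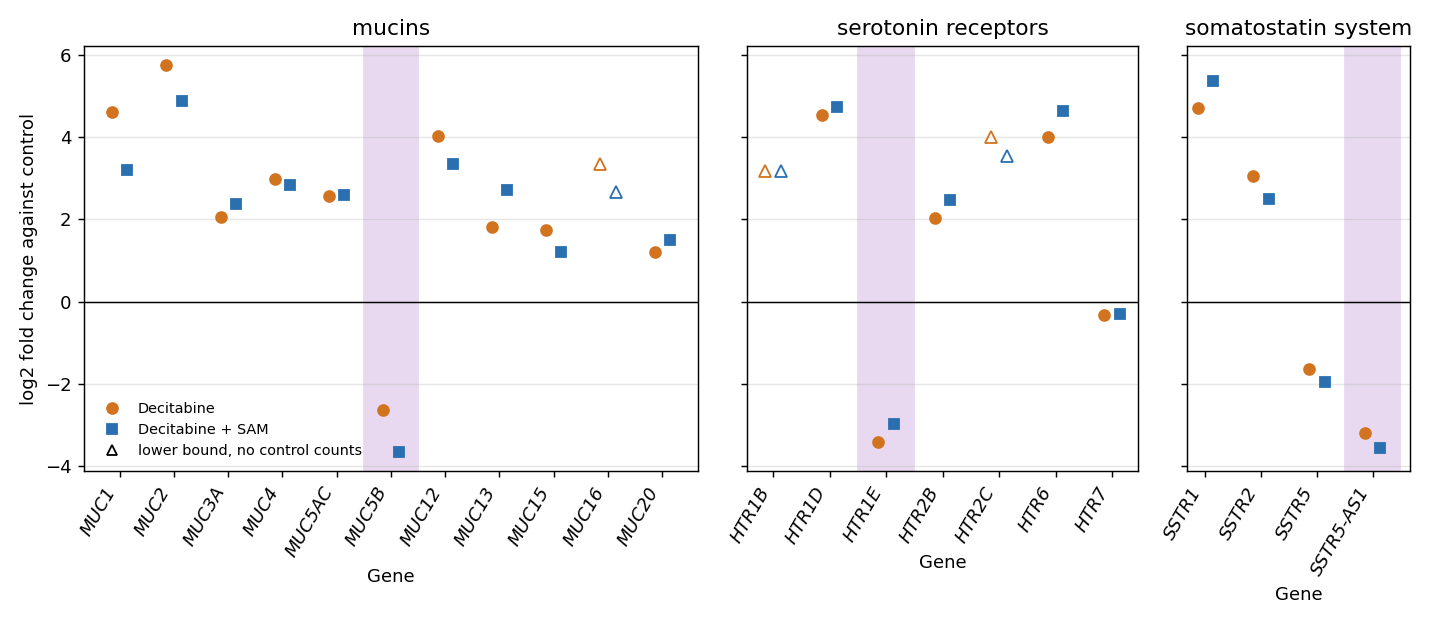
Log2 fold change against control (y axis) of the tested mucin, serotonin receptor and somatostatin system genes (x axis) with decitabine (circles) and the combination (squares), and lower bounds for genes without control counts (open triangles). The shaded genes MUC5B, HTR1E and SSTR5-AS1 lie below 0, whereas the other mucins lie between 1.22 and 5.75.

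Among the noncoding RNAs, SSTR5-AS1 was the most abundant. It was at 139, 130 and 123 CPM in control, 20.5, 13.1 and 9.17 CPM in decitabine and 14.3, 11.5 and 7.53 CPM in combination libraries, which left 10.9% and 8.52% of control (log2 fold changes -3.19, SE 0.31, and -3.55, SE 0.32). Its sense partner SSTR5, a receptor for the inhibitory hormone somatostatin, fell as well. SSTR5 was at 50.6, 38.6 and 34.9 CPM in control, 18.4, 13.5 and 8.16 CPM in decitabine and 14.2, 10.7 and 7.02 CPM in combination libraries (-1.63 and -1.96, adjusted p = 0.0038 and 0.0017 by edgeR). The gene bodies overlap on opposite strands, while no exon base is shared between them in the annotation. SSTR1 and SSTR2, receptors for the same hormone, rose with both treatments, SSTR1 from 0.248 CPM in control to 6.63 and 10.5 CPM. They were 2 of 3 tested genes of the somatostatin system besides SSTR5-AS1 (66.7%, against 36.3% and 35.9% of all genes tested). With 15 and 4 counts over the control libraries, both passed the filter through the treated libraries and had little room to fall. ENSG00000261720 shares 879 of the 4070 exon bases of SSTR5-AS1 on the opposite strand and had 45 counts over the control libraries, 7 over the decitabine and 6 over the combination libraries.

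MANCR was at 26.6, 24.0 and 21.6 CPM in control, 2.79, 1.26 and 1.31 CPM in decitabine and 2.48, 1.36 and 1.79 CPM in combination libraries. This left 7.42% and 7.79% of control, with log2 fold changes of -3.75 (SE 0.26) and -3.68 (SE 0.26), so that the levels with and without SAM were nearly the same. LINC00705 shares 337 exon bases with MANCR on the opposite strand and had 11, 24 and 16 counts over the control, decitabine and combination libraries, too few to be tested.

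LINC01721 showed the lowest fold change of the 9 genes against control with both treatments. Its counts were 57, 66 and 53 in control, 8, 2 and 3 in decitabine and 4, 1 and 1 in combination libraries. In CPM, 2.83, 3.30 and 2.61 stood against 0.338, 0.0842 and 0.127 with decitabine and 0.174, 0.0439 and 0.0425 with the combination. The log2 fold changes of -3.95 (SE 0.40) and -4.98 (SE 0.46) rested on few counts after treatment, and were -4.72 without decitabine replicate 1 and -5.91 without combination replicate 1.

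CITED1 was low in all libraries. Its estimated counts were 11, 13 and 13.44 in control, 6, 0.36 and 6.22 in decitabine and 19.38, 13.65 and 14.07 in combination libraries, which gave 0.546, 0.650 and 0.641 CPM, then 0.253, 0 and 0.254 CPM, and then 0.826, 0.615 and 0.595 CPM. The decitabine libraries were below every other library, and the combination libraries overlapped with control (log2 fold changes -1.82, SE 0.57, and 0.15, SE 0.45). Its relatives CITED2 and CITED4 rose with both treatments, CITED4 from 3.28 ± 0.0687 CPM to 13.9 and 11.6 CPM. The call of CITED2 with the combination (0.41, adjusted p = 0.015) was lost without control replicate 2 (0.38) or combination replicate 3 (0.28). CITED1 shares 679 of its 1760 exon bases with ENSG00000285547 on the same strand, and a part of the reads cannot be given to only 1 of them. When the counts of both were summed they were 11, 13 and 44.47 in control, 6, 9.05 and 14.53 in decitabine and 27.56, 28.7 and 22.99 in combination libraries. The control libraries then no longer agreed, since ENSG00000285547 had 31.03 counts in control replicate 3 and 0 in the other two.

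SMCO2 gave no sign of loss with decitabine. It was at 0.595, 0.700 and 0.493 CPM in control, 0.464, 0.716 and 0.550 CPM in decitabine and 0.304, 0.0439 and 0.595 CPM in combination libraries, and both treated groups overlapped with control. The log2 fold changes were -0.05 (SE 0.48) and -0.90 (SE 0.54). Over the 3 libraries of a group it had 36, 41 and 22 counts, and the 95% intervals of the fold changes ran from -1.08 to 0.99 and from -2.06 to 0.24, so that a smaller loss was not detectable at this depth. SMCO4, the only relative that was tested, passed the threshold with neither treatment.

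Counted over the 9 genes, 8 were called lower with decitabine and 7 with the combination, where 32.5% and 31.3% of all genes tested were called lower. The rule that chose them fixed this count. The medians of their log2 fold changes were -3.19 and -3.59. A ranking from the lowest fold change was limited to genes that averaged 50 counts or more in either group and did not overlap with control. In it, LINC01721, MANCR, HTR1E, MSMP and SSTR5-AS1 took ranks 1 to 5 with decitabine, TSPEAR rank 8 and MUC5B rank 19 of 10739. With the combination, LINC01721, MSMP, MANCR, MUC5B, TSPEAR and SSTR5-AS1 took ranks 1 to 6 and HTR1E rank 14 of 10403. CITED1 and SMCO2 had too few counts to be ranked. These ranks too follow from the rule that chose the genes, and are given as a description. The next genes after the first 5 with decitabine were BHLHA15, a transcription factor of secretory cells (-3.14), and the mitochondrial gene MT-ATP6 (-3.03). Those after the first 6 with the combination were ANKRD36C (-3.47) and LMF1 (-3.39), the lipase maturation factor.

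The order of the replicates was much alike over the 7 lost genes. Decitabine replicate 1 was the highest decitabine library for 7 of 7 genes and decitabine replicate 3 the lowest for 5. Combination replicate 3 was the lowest combination library for 6 and control replicate 3 the lowest control library for 6. The part of this order in the differences was not tested.

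Adding SAM to decitabine left most of these losses within the error of the comparison. Between the treatments, 15.7% of all genes tested were called (8.02% lower and 7.67% higher with the combination), and of the 9 genes 1 was called, CITED1. This comparison holds no control library but shares the treated libraries with the contrasts on which the genes were chosen. CITED1 was 3.92-fold higher with the combination than with decitabine (log2 fold change 1.97, 95% interval 0.83 to 3.18, adjusted p = 0.025 by edgeR's quasi-likelihood test), and the 3 combination libraries were above the 3 decitabine libraries. The call rested on few counts. It was lost without decitabine replicate 2 (1.40, adjusted p = 0.071), combination replicate 1 (1.80, adjusted p = 0.093) or combination replicate 2 (2.04, adjusted p = 0.075), and when ENSG00000285547 was added in (1.44, adjusted p = 0.072).

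**Figure D4:**
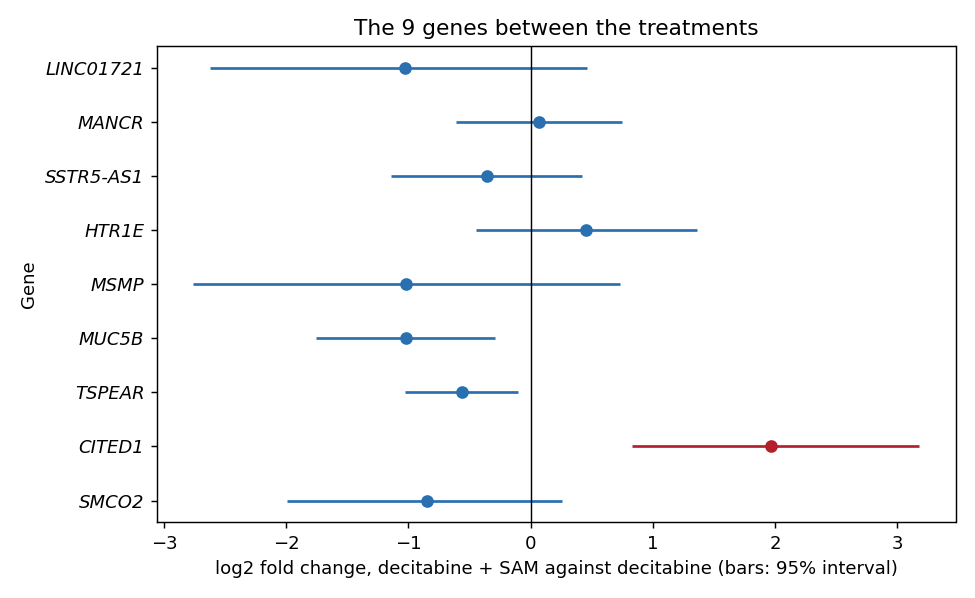
Log2 fold change of the combination against decitabine (x axis) for each of the 9 genes (y axis), with points for the fitted value and bars for the 95% interval. CITED1 (red) passed the test; the intervals of MUC5B and TSPEAR lie below 0 but their adjusted p-values do not pass, and those of the other 6 genes include 0.

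For MUC5B, the combination libraries were all below the decitabine libraries, by the narrow gap given above, and the log2 fold change between the treatments was -1.02 (95% interval -1.76 to -0.29, adjusted p = 0.069 by edgeR). It passed the threshold without decitabine replicate 3 (-1.30, adjusted p = 0.0011). TSPEAR differed by -0.56 (95% interval -1.03 to -0.10, adjusted p = 0.093 by edgeR), with overlapping libraries, and also passed without decitabine replicate 3 (-0.74, adjusted p = 0.027). For the other genes the intervals were wide. MSMP differed by -1.02 (-2.76 to 0.73), LINC01721 by -1.03 (-2.62 to 0.46), SMCO2 by -0.85 (-1.99 to 0.26), SSTR5-AS1 by -0.36 (-1.14 to 0.42), HTR1E by 0.45 (-0.45 to 1.36) and MANCR by 0.07 (-0.61 to 0.75), with adjusted p-values between 0.28 and 0.90. These values depended on single libraries. Without decitabine replicate 1, LINC01721 differed by -0.27, MSMP by -0.48, SSTR5-AS1 by -0.01 and MANCR by 0.54. Without combination replicate 1, LINC01721 differed by -1.95. SMCO2 differed by -0.35 without combination replicate 2 and by -1.69 without combination replicate 3. A further loss by 1 on the log2 scale thus lay within the interval for MSMP, LINC01721, SMCO2 and SSTR5-AS1 and outside it for HTR1E and MANCR.

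The surroundings of the 9 genes did not share their loss as a whole. Within 100 kb of their annotated bodies lie 108 other genes, of which 38 were tested. With decitabine 15 of these were lower (39.5%, against 32.5% of all genes tested) and 14 were higher (36.8%, against 36.3%). With the combination 14 were lower (36.8%, against 31.3%) and 12 were higher (31.6%, against 35.9%). Some single neighbours fell strongly. LMF1, 82769 bases from SSTR5-AS1 and on the same strand, fell from 13.5 ± 0.414 CPM to 2.41 ± 0.453 CPM with decitabine and 1.28 ± 0.158 CPM with the combination (SD, n = 3, log2 fold changes -2.49 and -3.39, adjusted p = 8.4e-09 and 9.2e-10 by edgeR). The only tested neighbour of MANCR, the noncoding RNA ENSG00000287023 at 68314 bases, fell from 16.8 ± 1.63 CPM to 5.09 ± 1.11 and 3.97 ± 0.203 CPM (-1.72 and -2.08, adjusted p = 1.7e-07 and 3.6e-08 by edgeR). UBE2G2, a ubiquitin-conjugating enzyme 57008 bases from TSPEAR, fell by 0.85 and 1.49 on the log2 scale.

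Around MSMP, 13 neighbours were tested, of which 6 were lower and 4 were higher with decitabine. Over all genes tested, 32.5% were lower and 36.3% higher. TPM2, which encodes a tropomyosin, lies 62934 bases from MSMP and rose from 8.39 CPM in control to 146 and 178 CPM (log2 fold changes 4.12 and 4.41, adjusted p = 2.7e-11 and 1.6e-11 by edgeR), while GBA2, 3762 bases away, fell by 0.85 and 0.79 on the log2 scale. CITED1 had 4 tested neighbours, of which 3 were lower with each treatment (against 32.5% and 31.3% of all genes tested). Among them was the ribosomal protein gene RPS4X (-1.08 and -0.80). LINC01721 and HTR1E had no tested neighbour. LINC02575, 2374 bases from TSPEAR, had no control counts and was at least 17.0-fold and 19.2-fold higher.

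**Figure D5:**
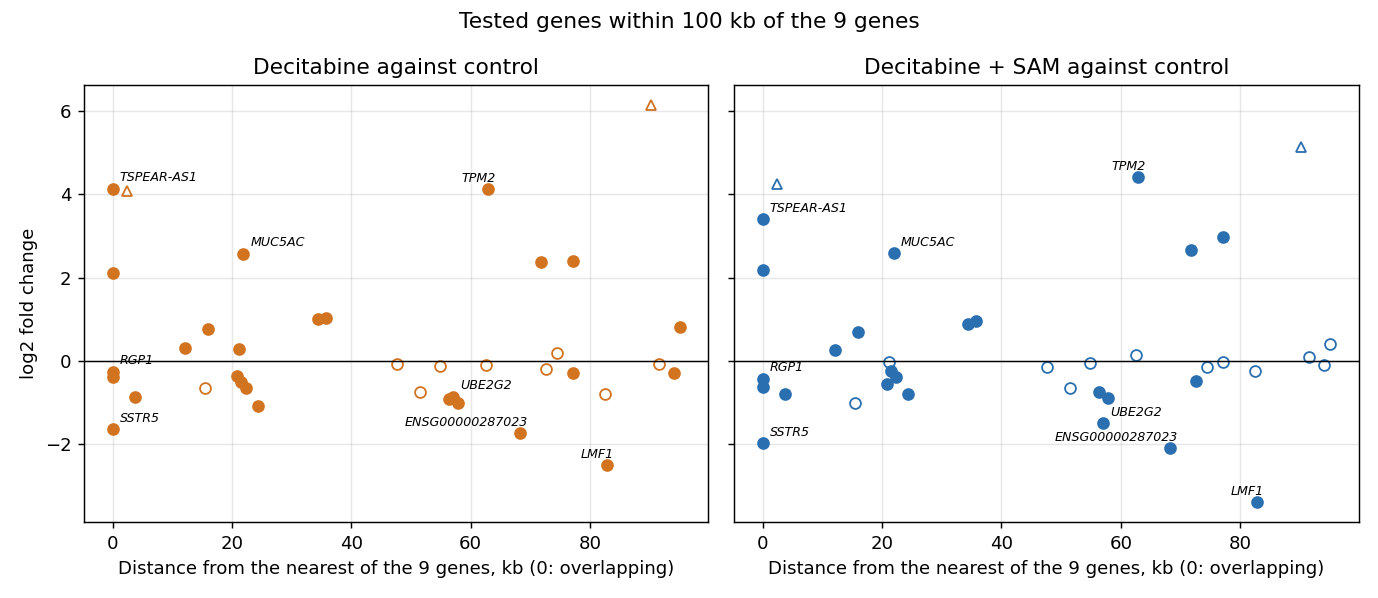
Log2 fold change against control (y axis) of the 38 tested genes within 100 kb of the 9 genes by their distance in kb (x axis, 0 for overlapping genes), with decitabine on the left and the combination on the right. Filled points passed the test, open circles did not and open triangles are lower bounds; LMF1 lies lowest with both treatments, and TPM2 and TSPEAR-AS1 lie high.

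Over the 9 libraries, the genes whose levels followed the mean pattern of the 9 genes most closely were TCTN1 (Pearson r = 0.997) and CCDC43, SLC25A12, GUSBP14 and PPP1R8 (r = 0.995 each). The points share the same 3 groups, so that r mainly reflects a step between control and treated libraries, and it is given as a description. TCTN1 went from 43.9 ± 1.98 CPM to 22.9 ± 2.05 and 21.0 ± 1.71 CPM, a far smaller step than that of the lost genes. CITED1 (r = 0.363) and SMCO2 (r = 0.397) followed the mean pattern least among the 9.

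The cells matched their label in the markers checked. The summed level of 6 markers known from the line (KRT8, KRT18, KRT19, EPCAM, CD44 and the mesenchymal VIM) was between 2454 and 2577 CPM in control, 1810 and 1904 CPM in decitabine and 1602 and 1746 CPM in combination libraries. VIM made up most of this difference, with 1219 to 1312, 523 to 638 and 476 to 546 CPM. The sum of the other 5 was 1202 to 1265, 1248 to 1296 and 1114 to 1200 CPM, and of these KRT8 and CD44 rose with both treatments while KRT18 and KRT19 fell. The call of KRT18 with decitabine (-0.25) was lost with library size as the only scaling (-0.01) and without control replicate 2 (-0.23). The luminal marker KLK3 did not pass the filter on low counts. The sum of 8 markers of other cell types was 51.1 to 62.7 CPM in control, 306 to 398 CPM in decitabine and 184 to 272 CPM in combination libraries, carried by CD68, PECAM1 and COL1A1, while the T cell marker CD3E was too low to be tested. These levels moved with the treatments, and their part in the loss of the 7 genes was not tested. In bulk RNA, fewer cells that express a gene and less RNA per cell cannot be told apart.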

How the data were processed

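The series comprised 9 RNA-seq libraries of PC-3 cells, 3 per group, grouped by the treatment named in the labels. Doses and the vehicle were taken from the methods of the study. Per the labels, reads were trimmed with Trim Galore 0.6.4 and quantified with kallisto (version given as 0.4.6) on GRCh38.p13. The values used were the deposited estimated counts per Ensembl gene, which the authors had not normalized. The deposited log2 CPM values were not used. The annotation release and the use of strand in counting are not given in the sources used here, and 60357 of 60617 identifiers matched GENCODE release 44.

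The estimated counts were rounded, filtered with filterByExpr (18532 genes) and scaled with TMM, and edgeR 4.0.16 (R 4.3.3) fitted 1 mean per group over all 9 libraries with the robust quasi-likelihood test. P-values were adjusted with the Benjamini-Hochberg method over all genes tested, at a threshold of 0.05. CPM values are scaled with TMM. Alternatives were other scalings (the size factors of DESeq2, or library size by itself), other tools (DESeq2 1.42.0, and voom with limma 3.58.1), other filters (none, or an average of 10 counts or more), a fit of only the 6 libraries of a comparison, a block on replicate number, other windows, and leaving out each library in turn. The sum of CITED1 with its overlapping gene, and the same alternatives for relatives and neighbours, were added after seeing the data.

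The members and the gene lists were chosen with earlier results of these data known. Named were the 9 genes, the first genes of each ranking by fold change, genes that overlap or lie within 100 kb and were called, genes of the lists (mucins, mucus-producing cells, serotonin receptors, somatostatin system, CCR2 with its ligands and microseminoproteins, CITED family and partners, EAR proteins, SMCO family, and 3 marker lists), and the 5 genes most alike over the libraries, from log2 CPM with a pseudocount of 0.1. Gene lengths are merged exon lengths. The test was tested on simulated data with 200 genes changed 4-fold per treated group in 5 draws of 18082 to 18129 genes. It recovered 100% of the changed genes in each comparison, and 4.40%, 5.12% and 5.72% of its calls were false for decitabine, the combination and the difference between them. The draws gave all genes the same small spread, and only genes with counts well above those of CITED1 and SMCO2 were changed. They do not show how the test performs for genes with few counts or a wide spread, such as MSMP, or where most genes change. No library was a copy of another. Values of a few marker genes are not reported here. Figures were drawn with matplotlib 3.10.9.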

Additional observations from a re-analysis of the deposited data

Results flagged for a closer look

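In 15 of 101 tested genes examined here (the 9 genes, their lists and their neighbours) the effects against control differed between the treatments, where 15.7% of all genes tested did, by the test of the combination against decitabine (edgeR's quasi-likelihood test, adjusted over all genes, n = 3 per group). Among the 9 genes this was CITED1 (log2 fold change 1.97, adjusted p = 0.025), whose call was lost without decitabine replicate 2 (1.40), combination replicate 1 (1.80) or combination replicate 2 (2.04).

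Among relatives, MUC1 was lower with the combination than with decitabine (-1.43, adjusted p = 0.033), TFAP2B was lower (-0.91, adjusted p = 0.031), and FOXA3 (1.22, adjusted p = 0.03), LGI2 (0.63, adjusted p = 0.039) and ADGRV1 (0.47, adjusted p = 0.021) were higher. Each of these calls was lost in several of the 9 fits that left out 1 library. They were MUC1 in 6 (any control, decitabine replicates 2 and 3, and combination replicate 2, values from -1.43 to -1.24), TFAP2B in 4 (decitabine replicates 2 and 3, combination replicates 1 and 2, -0.88 to -0.74), FOXA3 in 5 (any decitabine library, combination replicates 1 and 2, 1.15 to 1.39), LGI2 in 6 (any treated library, 0.59 to 0.69) and ADGRV1 in 4 (decitabine replicates 2 and 3, combination replicates 1 and 2, 0.37 to 0.50).

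Among neighbours, LMF1 near SSTR5-AS1 was lower with the combination (-0.90, adjusted p = 0.0074), as was UBE2G2 near TSPEAR (-0.64, adjusted p = 0.00059), and both kept the call in 9 of 9 such fits. CACNA1H near SSTR5-AS1 was lower (-0.33, adjusted p = 0.035), and lost the call in 5 fits (without control replicate 2, decitabine replicates 1 and 2, or combination replicates 1 and 2, -0.37 to -0.26). HDAC8 near CITED1 was higher (0.28, adjusted p = 0.027), and lost it in 4 (decitabine replicates 1 and 2, combination replicates 1 and 2, 0.22 to 0.29). Near SMCO2, BMAL2 was higher (0.25, adjusted p = 0.04) and lost the call in 7 fits (all but control replicate 1 and decitabine replicate 3 left out, 0.20 to 0.28), and PPFIBP1 (-0.32, adjusted p = 0.014) and C12orf71BP (-1.01, adjusted p = 0.013) were lower and lost it in 3 each (decitabine replicate 2, combination replicates 1 and 2, -0.31 to -0.26 and -0.95 to -0.91).

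Of the markers, CD68 (-0.96, adjusted p = 0.029) and KRT8 (-0.34, adjusted p = 0.0094) were lower with the combination. CD68 lost the call in 5 fits (any decitabine library, combination replicates 1 and 2, -1.05 to -0.81) and KRT8 in 2 (decitabine replicate 2, combination replicate 2, -0.34 to -0.32).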

How the results depend on the processing

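The count of the 9 genes lower than control was 8 to 8 for decitabine and 7 to 8 for the combination when single libraries were left out, and it was 8 and 7 with voom and limma. Library size as the only scaling shifted the median over all genes (log2) from 0.03 to 0.28 for decitabine and from 0.05 to 0.27 for the combination, and it turned SMCO2 with decitabine to 0.20. SMCO2 was also reversed without control replicate 2 (0.07) or decitabine replicate 1 (0.08) and lay at -0.23 to 0.08 over all libraries left out, and with the combination it fell to -1.74 (adjusted p = 0.017) without combination replicate 3. CITED1 with the combination was -0.03 without combination replicate 1 and up to 0.23 without others. The difference between the treatments for MANCR was -0.13 and -0.11 without decitabine replicates 2 and 3 and -0.18 without combination replicate 1, and up to 0.54 without others. The count of the 9 genes that differed between the treatments was 2 with voom and limma (CITED1 and MUC5B), 0 with only the 6 libraries compared and 0 to 3 with 1 library left out. In the fit of 6 libraries CITED1 had an adjusted p of 0.053, and HTR1E and LINC01721 did not pass the filter. MUC5B passed the threshold with DESeq2 (-1.03, adjusted p = 0.0058) and with voom (-0.95, adjusted p = 0.022), and DESeq2 gave CITED1 and SMCO2 no adjusted p there. Of the other serotonin receptors, 3 and 3 were called higher at a mean of at least 10 counts and 3 and 2 with only 6 libraries, where fewer genes were tested. Within 50 kb, 8 and 8 of 19 tested neighbours were lower (42.1% each), and within 500 kb 60 and 56 of 151 (39.7% and 37.1%). Of all genes tested, 32.5% and 31.3% were lower. Within 50 kb 9 and 8 were higher (47.4% and 42.1%), and within 500 kb 43 and 42 (28.5% and 27.8%). Of all genes tested, 36.3% and 35.9% were higher. The median CpG count was 6.5 in the 250 bases before the start alone. Among 123 called values of relatives, neighbours and markers (a gene in a comparison), 25 lost the call under at least 1 alternative and 0 were reversed. The cause of these changes was otherwise not tested. For genes with few counts, such as CITED1 and SMCO2, depth limits what can be seen.

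With the replicate number as a block, 8 and 7 of the 9 genes were lower and 1 differed between the treatments, and the medians were -3.25, -3.60 and -0.55. Whether the numbers pair the samples could not be settled from these values. The correlations of deviations between libraries of the same number ranged from -0.017 to 0.233. Between decitabine and combination libraries they were 0.233, 0.036 and 0.229, against -0.22 where replicates 1 and 3 were crossed. The main fit took no account of the numbers. Every decitabine library correlated best with the combination library of its own number, as a hint from the data.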
